A study of Rattus norvegicus with 141 samples.

Results

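Female rat stomach was compared between animals given microplastics at 50 mg/kg and animals given vehicle, with 8 RNA libraries in each group. These were the libraries numbered 25 to 32 (vehicle) and 41 to 48 (50 mg/kg), and they make up 16 of the 141 libraries of the series. All 16 came from adult, wild-type (WT) Sprague-Dawley rats, an outbred laboratory stock, kept on ordinary chow, and polyadenylated RNA was sequenced. The other stomach libraries used here were 8 from females at 5 mg/kg, and 8 each from males given vehicle, 5 mg/kg and 50 mg/kg. Not given in the sources used here are the polymer, particle size, route and length of dosing. The labels leave unstated whether each library stands for its own animal, so p-values measure the spread between libraries, which may be partly technical.

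The rat stomach has a glandular part and a non-glandular forestomach. Glandular mucosa holds parietal cells that secrete acid, chief cells that secrete pepsinogen, mucous pit and neck cells, and hormone-secreting enteroendocrine cells, while the forestomach is lined by a keratinising squamous epithelium. The genes examined below are those of its cell types, of protein folding and secretion, of defence and of the stress pathways that toxic exposures are known to engage. The pieces ground for each library contain all layers of the wall. In such bulk samples fewer cells of a type and less RNA per cell cannot be told apart.

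The 16 libraries held between 6500508 and 23940175 estimated counts. Vehicle libraries came 4 from batch 1 and 4 from batch 2 of the labels, while those at 50 mg/kg came 3 from batch 1, 4 from batch 2 and 1, the deepest, from batch 3. Defining markers of the glandular stomach were abundant in every library: pepsinogen C (Pgc) was at 74104 to 125592 CPM (median 105083) in vehicle and 66048 to 116825 CPM (median 94465) at 50 mg/kg, where CPM is the count relative to library size after TMM scaling, and Atp4a, the catalytic subunit of the acid pump, was at 4004 to 6434 CPM (median 5845) and 2784 to 6092 CPM (median 5038). Summed Y-linked genes were at most 0.210 CPM in all 16. In 3 libraries ribosomal protein genes took over 5% of the counts, namely vehicle replicate 2 and replicates 2 and 3 at 50 mg/kg, and these also stood apart on the first principal component of log2 CPM, which held 21.7% of the variance. Without these 3 libraries edgeR called no gene either and 1261 had an unadjusted p under 0.05; values without them stand below beside several genes and gene lists.

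No gene passed an adjusted p of 0.05 between 50 mg/kg and vehicle in female stomach. Among 15140 genes tested with edgeR's quasi-likelihood test the called share was 0%, and the smallest Benjamini-Hochberg adjusted p was 0.539, for Mipep. An unadjusted p under 0.05 was reached by 880 genes, 5.81% of those tested, of which 393 (2.6%) were higher and 487 (3.22%) lower at 50 mg/kg. DESeq2 called 1 gene, an uncharacterised locus (LOC120095480), and had 885 at an unadjusted p under 0.05. The log2 change it gave this locus was 28.6 at a mean of 3.32 CPM, larger than counts of this depth can measure. Log2 changes lay about evenly around 0, with 49.2% of genes above it and a median of -0.0026. The median standard error was 0.125 on the log2 scale.

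The precision sets what could have been seen. For 14057 genes (92.8%) the 95% confidence interval of the log2 change lay wholly inside a 2-fold difference either way, and for 11639 (76.9%) inside 1.5-fold. This share depended on the level of the gene: intervals stayed inside 2-fold for 48.4% of genes under 1 CPM, 87.6% between 1 and 10 CPM, 97.9% between 10 and 100 CPM and 97.5% above. Changes under about 1.5-fold, and larger ones in genes under 1 CPM, were therefore often not detectable. These intervals came from the fit of all 48 stomach libraries and were not adjusted for the number of genes, while calls were. Larger changes in genes above 1 CPM could thus go uncalled too. The estimate for Adgrg3, a log2 change of 0.73, went uncalled. That gene was named for its small p, so its estimate need not be a true change. Between 1 and 10 CPM only 55.2% of intervals lay inside 1.5-fold.

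**Figure D1:**
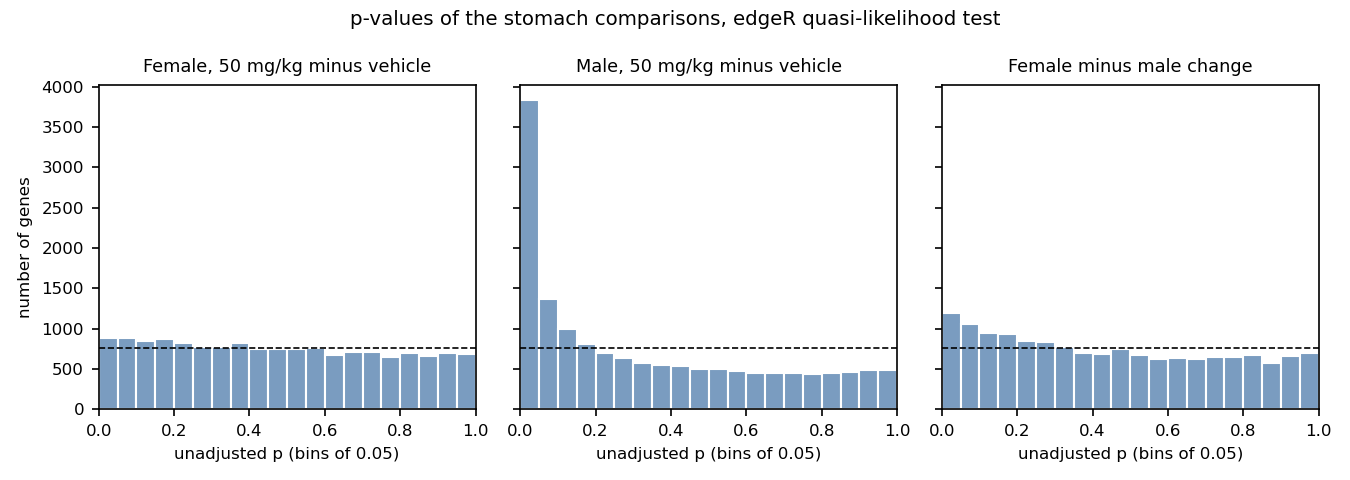
Number of stomach genes by unadjusted p in 20 bins of 0.05 (x axis: p, y axis: genes) for females and males at 50 mg/kg and for the female change minus the male change; the dashed line is the mean over the bins. In females the lowest bin holds 880 genes, against 3838 in males.

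The gene with the smallest p was Mipep, the mitochondrial intermediate peptidase, which trims proteins after import into mitochondria. It lay at 18.5 to 22.2 CPM (median 20.6) in the vehicle libraries and at 13.3 to 19.7 CPM (median 17.2) at 50 mg/kg, a log2 change of -0.25 ± 0.058 (± SE here and below, n = 8 and 8 libraries; edgeR adjusted p = 0.539). All 8 libraries at 50 mg/kg were below the vehicle median and 7 below the lowest vehicle library, so the groups overlapped through 1 library. Mrm2, which methylates mitochondrial ribosomal RNA, spanned 6.46 to 10.9 CPM (median 7.73) and 4.20 to 6.86 CPM (median 6.25), a log2 change of -0.44 ± 0.11, again with all 8 below the vehicle median. Other genes of mitochondrial import and processing did not share a direction: of 22 measured, 9 had a log2 change above 0 and 13 below, with a median of -0.035.

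Several of the other genes lower at 50 mg/kg act in the nucleus. Mecom, a zinc-finger transcription factor, spanned 214 to 295 CPM (median 273) and 177 to 242 CPM (median 218), a log2 change of -0.30 ± 0.086. All 8 libraries at 50 mg/kg lay below the vehicle median, and the groups overlapped. Ints2, a subunit of the Integrator complex that processes small nuclear RNAs, spanned 10.4 to 16.3 CPM (median 14.1) and 9.78 to 12.3 CPM (median 10.6) (log2 change -0.31 ± 0.084). Smarcal1, an annealing helicase that protects stalled replication forks, spanned 13.5 to 16.8 CPM (median 14.6) and 10.7 to 14.6 CPM (median 12.5), with a log2 change of -0.25 ± 0.071 and 6 of 8 libraries below the lowest vehicle library. Kifbp, a kinesin-binding protein, spanned 27.1 to 33.3 CPM (median 30.8) and 19.7 to 31.3 CPM (median 24.8), with a log2 change of -0.29 ± 0.072 and likewise 6 of 8 below. Lbh, a transcriptional cofactor, had a log2 change of -0.34 ± 0.10 with 2 of 8 below.

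Nt5c1a, a cytosolic nucleotidase known from striated muscle, had the largest log2 change of these 10 at -0.95 ± 0.28. Vehicle libraries spanned 1.2805 to 5.34 CPM (median 1.85) and those at 50 mg/kg 0.321 to 1.84 CPM (median 1.41). The highest vehicle value came from replicate 3, the library in which striated muscle genes took the largest share of counts of the 16 (0.302%). Without this library the log2 change of Nt5c1a was -0.69.

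Among genes higher at 50 mg/kg, Adgrg3 led. It encodes an adhesion G protein-coupled receptor known from granulocytes, and it lay at 1.23 to 1.89 CPM (median 1.47) in vehicle and 1.91 to 3.76 CPM (median 2.55) at 50 mg/kg, a log2 change of 0.73 ± 0.19 (edgeR adjusted p = 0.848). Its 2 groups did not overlap. Only 3 of the 15140 genes, 0.0198%, had groups that did not overlap in CPM, all of them higher at 50 mg/kg. The other two, named here after their values were seen, were Trpv3, a warmth-gated ion channel of keratinocytes, at 1.12 to 1.51 CPM (median 1.27) and 1.57 to 3.23 CPM (median 1.87), and Rnf113a1, a RING finger protein of the spliceosome, at 1.63 to 2.58 CPM (median 2.19) and 2.65 to 4.19 CPM (median 2.91). Their log2 changes were 0.63 ± 0.31 and 0.56 ± 0.18, with edgeR adjusted p = 0.848 for both.

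Some of the 10 higher genes act in defence, but the lists of such genes had no common direction. Antimicrobial genes were split 5 and 5 around a median of 0.013, and 6 of 10 MHC class II genes lay above 0 (median 0.033). Defb14, a beta-defensin of squamous epithelia, was at 0.271 to 4.10 CPM (median 1.01) in vehicle and 1.52 to 4.29 CPM (median 3.81) at 50 mg/kg, a log2 change of 1.39 ± 0.41. All 8 libraries at 50 mg/kg were above the vehicle median, but 1 vehicle library, replicate 2, reached 4.10 CPM, inside the upper end of the 50 mg/kg range. Card9, an adaptor of innate immune signalling, spanned 16.3 to 24.1 CPM (median 20.7) and 23.02 to 26.6 CPM (median 24.96), a log2 change of 0.29 ± 0.085, with 5 of 8 above the highest vehicle library. RT1-DOb, the beta chain of the class II modulator DO, spanned 0.827 to 2.30 CPM (median 1.06) and 1.67 to 2.79 CPM (median 2.14), a log2 change of 0.74 ± 0.23. Genes of the RT1 family share sequence, so its counts are uncertain.

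The remaining 6 higher genes had varied roles. Col23a1, a transmembrane collagen, spanned 1.18 to 4.60 CPM (median 3.46) and 3.56 to 10.3 CPM (median 5.84) (log2 change 0.89 ± 0.27). Tuba1c, an alpha-tubulin, spanned 0.677 to 2.13 CPM (median 1.11) and 1.38 to 3.53 CPM (median 1.97) (log2 change 0.82 ± 0.23), and since alpha-tubulin genes are nearly identical its counts are uncertain. Log2 changes were 0.57 ± 0.16 for Eva1a, which acts in autophagy, 0.34 ± 0.096 for the lysine methyltransferase Smyd2, 0.33 ± 0.090 for the phospholipid phosphatase Plpp1 and 0.33 ± 0.097 for the zinc-finger gene Zfp821. In each of these 6 genes all 8 libraries at 50 mg/kg lay above the vehicle median, with overlap between the groups.

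**Figure D2:**
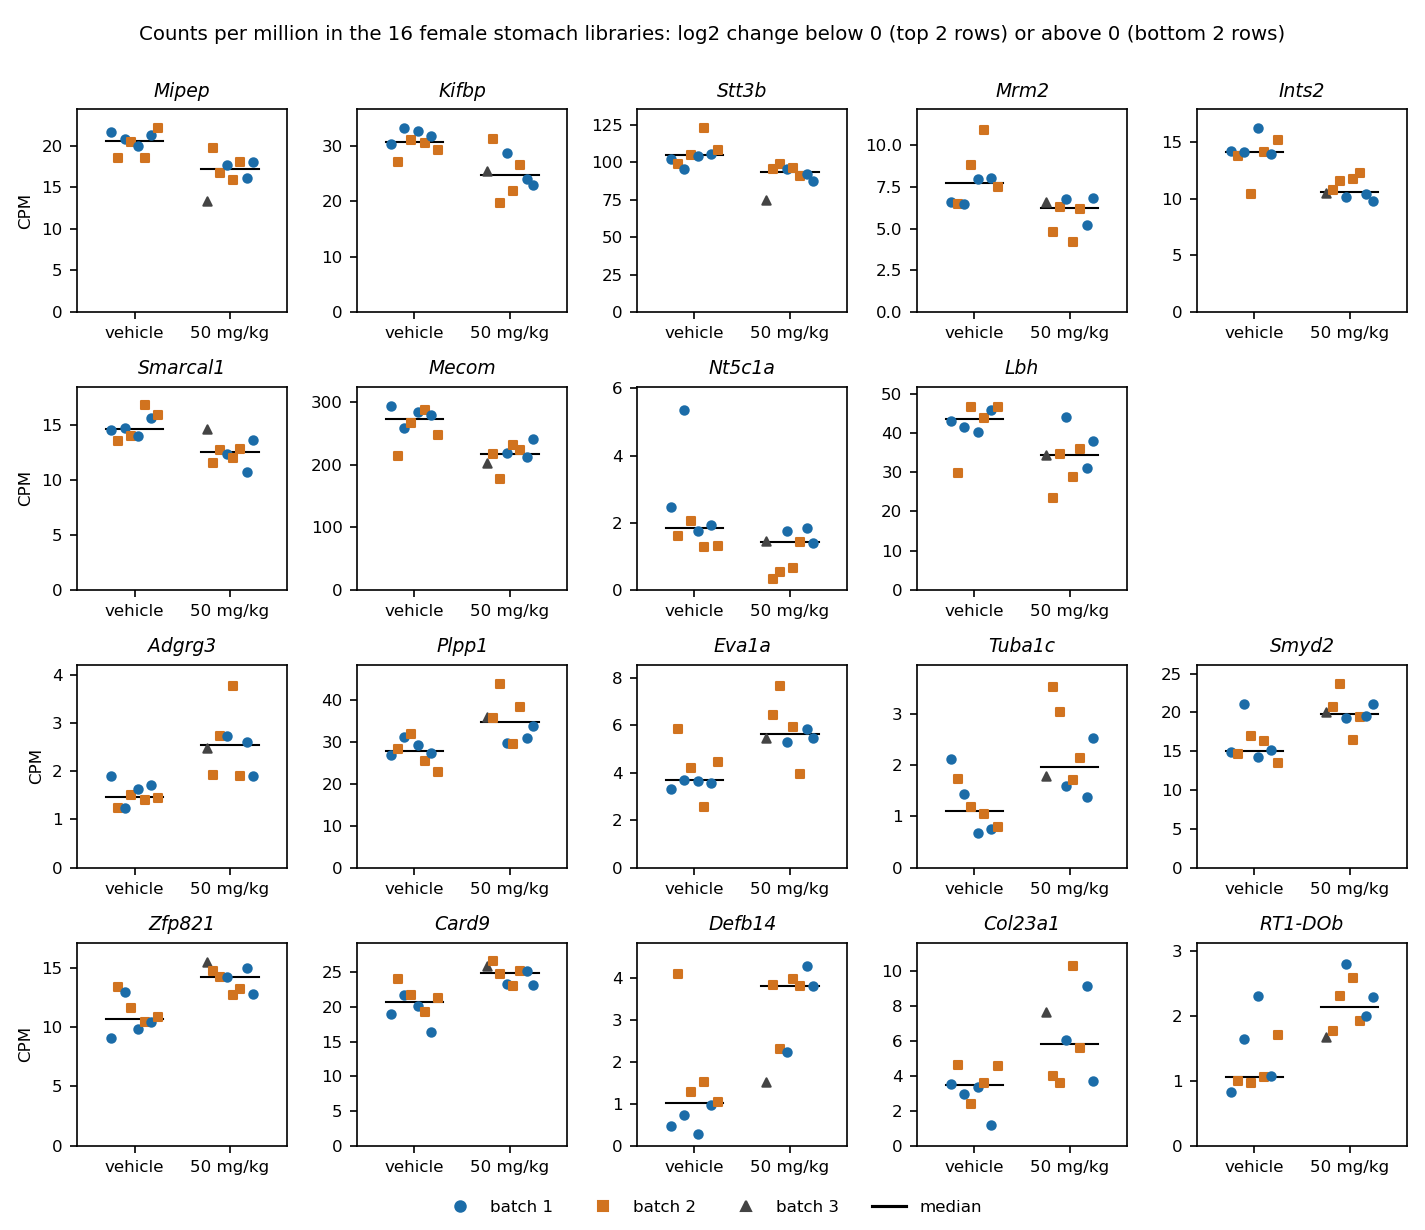
CPM (y axis, from 0) of 19 of the 20 genes named for the smallest p, in the 8 vehicle and 8 libraries at 50 mg/kg of female stomach; each point is a library, its colour and shape the batch, and the line the group median. The groups overlap in each panel but that of Adgrg3.

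Since vehicle replicate 2 stood apart from the other vehicle libraries, the comparison was repeated without it. No gene was called then either, while 1334 genes had an unadjusted p under 0.05 and the edgeR adjusted p was 0.193 for both Mipep and Defb14. The log2 change of Defb14 was 1.87 without this library and 1.94 without all 3 libraries above 5% ribosomal protein counts. For Defb1, another beta-defensin, it was 0.63 ± 0.33 with all 16 libraries, 1.082 without vehicle replicate 2 and 0.97 without the 3. Vehicle replicate 2 held 18.9 CPM where the vehicle median was 4.15.

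Genes of protein folding in the endoplasmic reticulum lay below vehicle as a group. Of 24 unfolded protein response genes measured, 22 had a log2 change below 0 and 2 above, with a median of -0.16; over all genes tested 49.2% lay above 0 and the median was -0.0026. None was called (0% of all genes were), and 10 had an unadjusted p under 0.05, all lower, where 3.22% of all genes did. Hspa5, the main chaperone of this compartment (BiP), was at 504 to 855 CPM (median 660.3) in vehicle and 381 to 838 CPM (median 528) at 50 mg/kg, a log2 change of -0.34 ± 0.13. Pdia3, a disulfide isomerase for glycoproteins, spanned 558 to 697 CPM (median 575) and 479 to 607 CPM (median 514) (log2 change -0.20 ± 0.071), and 7 of 8 libraries lay below the lowest vehicle library. Uggt1, which senses misfolded glycoproteins, spanned 58.9 to 103 CPM (median 89.4) and 61.2 to 81.6 CPM (median 66.4) (log2 change -0.29 ± 0.10), and all 8 lay below the vehicle median. The list median was -0.25 within batch 1 and -0.12 within batch 2.

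Enzymes of N-glycosylation, which attach and trim sugars on secreted proteins, gave a like picture with smaller values. Of 28 measured, 26 had a log2 change below 0, 6 of them with an unadjusted p under 0.05, and the median was -0.10 (-0.12 in batch 1 and -0.020 in batch 2). Stt3b, a catalytic subunit of the oligosaccharyltransferase, was at 95.4 to 123 CPM (median 105) in vehicle and 74.7 to 99.2 CPM (median 93.8) at 50 mg/kg, a log2 change of -0.19 ± 0.049, with all 8 libraries below the vehicle median. Man1a1, a mannosidase, had a log2 change of -0.19 ± 0.065 and Ganab, a glucosidase subunit, one of -0.17 ± 0.059. Uggt1 belongs to both lists, so they are not independent.

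Markers of the glandular cell types lay mostly below vehicle. Parietal cell genes had 13 of 16 below 0 and a median of -0.19 (-0.25 in batch 1, -0.097 in batch 2). This median was -0.060 with 3 surrogate variables in the model. An unadjusted p under 0.05 was reached by 2 parietal genes, both lower. Kcnj15, a potassium channel of the acid-secreting membrane, spanned 214 to 372 CPM (median 319) in vehicle and 181 to 278 CPM (median 245) at 50 mg/kg, a log2 change of -0.39 ± 0.13, with all 8 libraries below the vehicle median. For Atp4a the log2 change was -0.25 ± 0.13, and 7 of 8 libraries lay below the vehicle median. Summed parietal markers made up 0.841% to 1.24% (median 1.16%) of counts in vehicle and 0.721% to 1.12% (median 0.987%) at 50 mg/kg, so the groups overlapped.

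Pit cell genes had 11 of 13 below 0 (median -0.20) with none at an unadjusted p under 0.05, and within batch 2 the list turned, with 7 of 13 above 0 and a median of 0.019. Muc5ac, the main secreted mucin of the surface, spanned 7170.2 to 15945 CPM (median 11422) and 4142 to 14971 CPM (median 8645), a log2 change of -0.36 ± 0.20 (95% interval -0.76 to 0.033), and Gkn1, a peptide of the same cells, had 0.11 ± 0.21. Vsig1, an adhesion protein of gastric epithelium, had -0.20 ± 0.11. Neck cell genes had 5 of 8 below 0 (median -0.16), with Spdef, a transcription factor of mucous cells, at -0.24 ± 0.14. Chief cell genes had 6 of 9 below 0 (median -0.10), and Pgc itself had a log2 change of -0.13 ± 0.22. The chief cell median was 0.11 with 3 surrogate variables in the model and 0.0068 when the share of ribosomal protein counts entered the model, so its direction did not hold throughout.

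Hormone-secreting and rarer epithelial cells added few values apart from 0. Of 19 enteroendocrine genes 15 lay below 0 (median -0.16). With 3 surrogate variables 13 of 19 lay above 0 (median 0.10), and without vehicle replicate 3 the median was -0.038. Tph1, which makes serotonin, was at 14.2 to 37.7 CPM (median 28.1) in vehicle and 12.02 to 25.3 CPM (median 16.7) at 50 mg/kg, a log2 change of -0.61 ± 0.24, and all 8 libraries lay below the vehicle median. Ghrelin (Ghrl) had a log2 change of 0.019 ± 0.18, with a 95% interval of -0.34 to 0.37. Tuft cell genes were split 5 and 5 around a median of -0.052, and Pou2f3, their master transcription factor, spanned 3.08 to 8.65 CPM (median 5.90) and 6.56 to 12.2 CPM (median 8.83) (log2 change 0.55 ± 0.26). Stem and progenitor genes had 6 of 9 below 0 overall but a median of 0.076 within batch 1, and Axin2, a target of Wnt signalling, was at 0.21 ± 0.12.

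Forestomach squamous genes lay above vehicle over all batches, but not within batch 2. Of 25 measured, 22 had a log2 change above 0 (49.2% of all genes did), 5 with an unadjusted p under 0.05 (2.6% of all genes), and the median was 0.40. Within batch 1 the median was 0.63 and within batch 2 it was -0.045, and with 3 surrogate variables in the model it was -0.015, so the direction of the group did not hold throughout. Summed squamous markers made up 0.928% to 2.49% (median 1.24%) of counts in vehicle and 1.23% to 2.99% (median 1.84%) at 50 mg/kg, with means of 1.102% against 1.83% in batch 1 and 1.73% against 1.54% in batch 2. The part that the amount of forestomach in each piece had in these values was not tested.

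Single squamous genes varied between batches. Krt5, the basal keratin of squamous epithelium, was at 135 to 301 CPM (median 167) in vehicle and 149.7 to 373 CPM (median 239) at 50 mg/kg, and its log2 change of 0.33 ± 0.27 was 0.62 within batch 1 and -0.16 within batch 2. Fam25a was at 99.9 to 451 CPM (median 151) and 176 to 458 CPM (median 269), a log2 change of 0.75 ± 0.30 (0.82 and 0.35 within the batches), and Stfa3, a cysteine protease inhibitor of the stefin family, had 0.70 ± 0.29 (0.70 and 0.48). Hopx, a homeodomain protein without DNA binding, had 0.52 ± 0.21, and Perp, a desmosomal protein and p53 target, 0.37 ± 0.18. Vehicle replicate 2 held the highest vehicle value of Fam25a, Stfa3 and Hopx, although its summed squamous share (1.21%) was below the vehicle median (1.24%). Without this library the log2 changes of these genes were 0.99, 0.98 and 0.70. Without all 3 libraries above 5% ribosomal protein counts they were 0.94, 0.78 and 0.63.

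Cytosolic ribosomal protein genes all lay above 0, each by a small amount. The 37 measured had log2 changes between 0.041 and 0.37, with a median of 0.22, and none had an unadjusted p under 0.05. These genes have many processed copies in the genome, so their counts are uncertain. Rps6, a protein of the small subunit, spanned 436 to 971 CPM (median 485) in vehicle and 338 to 1054 CPM (median 556) at 50 mg/kg, a log2 change of 0.25 ± 0.17, with 5 of 8 libraries above the vehicle median. Rpl28, of the large subunit, had 0.22 ± 0.12. As a share of counts, all ribosomal protein genes took 2.53% to 6.03% (median 2.78%) in vehicle and 2.76% to 5.89% (median 3.35%) at 50 mg/kg. The high values came from vehicle replicate 2 (6.03%) and from replicates 2 and 3 at 50 mg/kg (5.89% and 5.68%), all of batch 2. The median of the 37 genes was 0.35 without that vehicle library and 0.16 without all 3.

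Mitochondrially encoded genes took 11.5% to 13.5% (median 12.5%) of counts in vehicle and 7.74% to 17.6% (median 10.8%) at 50 mg/kg. At 50 mg/kg 5 of 8 libraries lay below the lowest vehicle library and 1 above the highest. Mean shares were 12.1% in vehicle against 10.5% at 50 mg/kg in batch 1, and 12.8% against 13.5% in batch 2. The lowest share at 50 mg/kg belonged to the batch 3 library and the highest to replicate 2 of batch 2. Nuclear genes of the respiratory chain were split, with 16 of 33 above 0 and a median of -0.012, but this joins opposite values. Within batch 1 only 1 of 33 lay above 0 (median -0.16), and within batch 2 29 of 33 did (median 0.16). None lay above 0 without the 3 libraries rich in ribosomal protein counts (median -0.13) or when the share of ribosomal protein counts entered the model (median -0.16). Ndufs1, a core subunit of complex I, was at 145 to 219 CPM (median 190.2) in vehicle and 109 to 185 CPM (median 157) at 50 mg/kg (log2 change -0.24 ± 0.087), with all 8 libraries below the vehicle median.

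**Figure D3:**
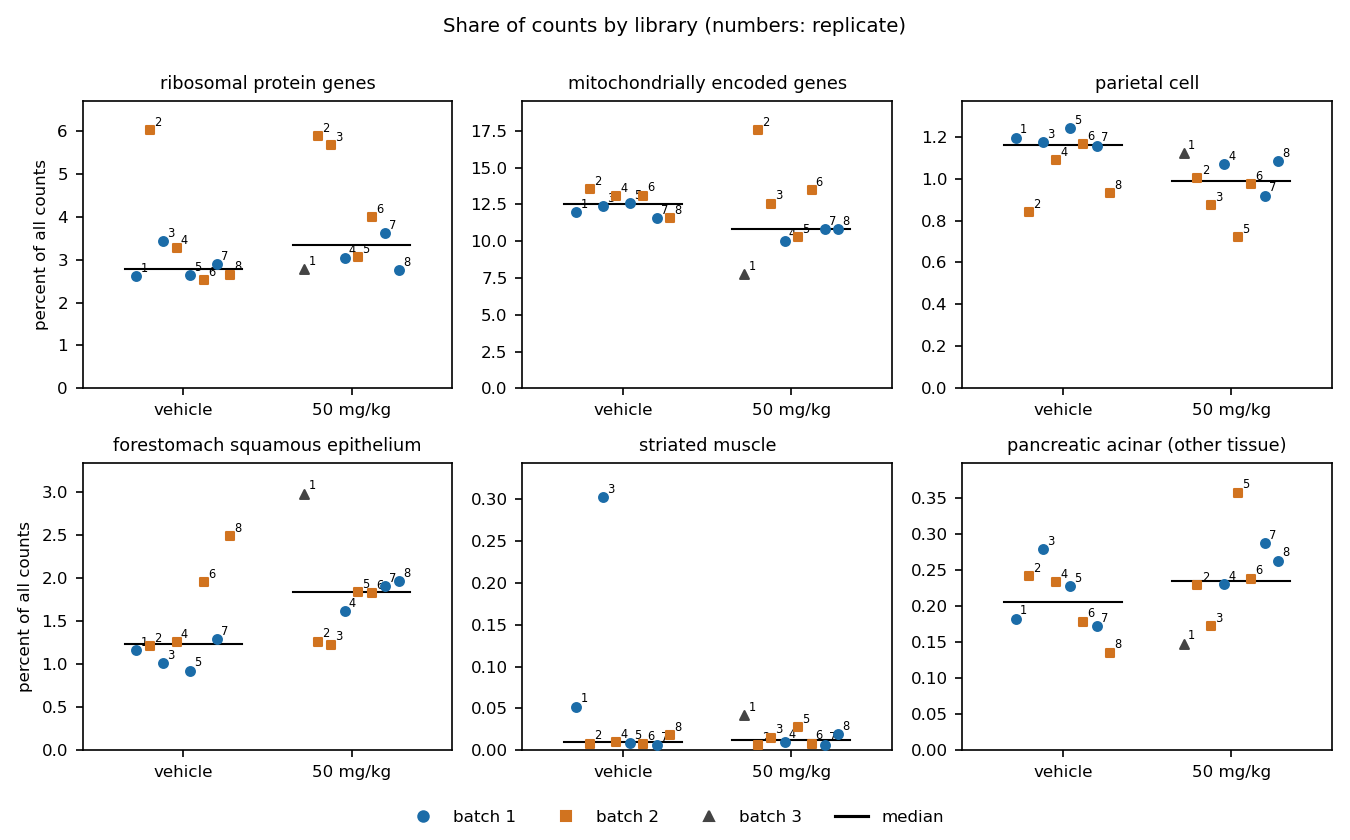
Percent of all counts (y axis, from 0) in 6 sets of genes, in each of the 8 vehicle and 8 libraries at 50 mg/kg of female stomach; numbers are replicates, colours and shapes batches, and lines group medians. Vehicle replicate 2 holds 6.03% ribosomal protein counts and vehicle replicate 3 0.302% striated muscle counts, each far above the other vehicle libraries.

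Genes of immune cells and of inflammation gave no call and no common direction. Macrophage genes had 11 of 16 above 0 (median 0.15, but -0.056 within batch 1 and -0.037 with 3 surrogate variables), with 2 at an unadjusted p under 0.05, both higher. Lyz2, a lysozyme of phagocytes, was at 69.8 to 139.7 CPM (median 89.2) in vehicle and 74.4 to 176 CPM (median 117) at 50 mg/kg, a log2 change of 0.32 ± 0.16, and Trem2, a lipid-sensing receptor, had 0.55 ± 0.25 (-0.055 within batch 1). The neutrophil list and the eosinophil and type 2 list lay above 0 in full over all batches, but with few members measured. The 5 neutrophil genes had a median of 0.20, with Cxcr2, a chemokine receptor, at 0.39 ± 0.30. Within batch 1 3 of these 5 lay above 0, and within batch 2 4 of 5 did. The 6 eosinophil and type 2 genes had a median of 0.23, with the alarmin Il33 at 84.2 to 187 CPM (median 95.4) in vehicle and 112 to 184 CPM (median 138) at 50 mg/kg (log2 change 0.33 ± 0.18).

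Other immune lists were divided. Mast cell genes had 7 of 10 above 0 (the tryptase Tpsb2 at 0.74 ± 0.35), T and NK cell genes 6 of 9, B and plasma cell genes 1 of 5 (Cd79a at -0.56 ± 0.34) and MHC class II genes 6 of 10. Cytokines and chemokines were 10 of 18 above 0, with the adhesion molecule Icam1 at 0.28 ± 0.13 and the cytokine Il1b at 0.542 to 2.26 CPM (median 1.45) in vehicle and 0.716 to 2.14 CPM (median 1.07) at 50 mg/kg (log2 change -0.17 ± 0.33). Interferon response genes had 13 of 20 below 0 (median -0.095). Antimicrobial genes were split 5 and 5 around a median of 0.013. With 3 surrogate variables the medians of the B and plasma cell list (-0.085 to 0.056), the cytokine list (0.045 to -0.0049) and the antimicrobial list (-0.039) changed sign.

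In pathways known to respond to toxic exposure no gene was called. Of 24 genes of the NRF2 oxidative stress response, 17 had a log2 change below 0, 1 with an unadjusted p under 0.05, and the median was -0.053. Hmox1, the inducible haem oxygenase, was at 18.9 to 42.4 CPM (median 30.3) in vehicle and 22.4 to 55.3 CPM (median 34.3) at 50 mg/kg, a log2 change of 0.14 ± 0.24 whose 95% interval ran from -0.34 to 0.63. Osgin1, a growth inhibitor induced by oxidative stress, had -0.41 ± 0.18. Of 10 genes of the aryl hydrocarbon receptor (AhR) and xenobiotic list 7 lay below 0. Cyp1a1, the classical AhR target, spanned 1.29 to 3.80 CPM (median 2.02) and 1.67 to 4.24 CPM (median 2.27) (log2 change 0.26 ± 0.42, 95% interval -0.58 to 1.11), an interval that held a 2-fold increase but no 2-fold decrease. Cyp1b1, a related enzyme, lay at 8.03 to 13.7 CPM (median 11.4) and 4.95 to 10.4 CPM (median 7.30), a log2 change of -0.64 ± 0.21, with all 8 libraries below the vehicle median.

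Other stress lists held few genes apart from 0. Heat shock genes had 10 of 14 below 0 (median -0.13), yet Rbm3, the cold-inducible RNA-binding protein of that list, had a log2 change of 0.34 ± 0.11. Metal-handling genes had 7 of 12 below 0 (median -0.058), with the zinc importer Slc39a10 at -0.19 ± 0.080. Genes of p53 and apoptosis had 12 of 18 above 0 (median 0.067), and immediate early genes 13 of 20 (median 0.029; 0.16 with 17 of 20 above 0 without the 3 libraries above 5% ribosomal protein counts, and -0.019 within batch 2), although Nr4a2, an orphan nuclear receptor, lay at -0.45 ± 0.15. Without vehicle replicate 2, which held 46.2 CPM of Nr4a2, its log2 change was -0.28.

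Proliferation and barrier genes lay below vehicle more often than above. Cell cycle genes had 25 of 32 below 0 (median -0.11), 2 with an unadjusted p under 0.05. Top2a, the topoisomerase of dividing cells, spanned 22.6 to 54.6 CPM (median 47.2) in vehicle and 23.6 to 58.8 CPM (median 34.1) at 50 mg/kg, a log2 change of -0.28 ± 0.14 that was -0.014 within batch 1 and -0.51 within batch 2. Kif11, a spindle motor, had -0.25 ± 0.096. Tight junction and adhesion genes had 21 of 27 below 0 (median -0.11), with 4 lower and 2 higher at an unadjusted p under 0.05. Cdh1, the E-cadherin that joins epithelial cells, was at 472 to 735 CPM (median 593) in vehicle and 374 to 603 CPM (median 532) at 50 mg/kg (log2 change -0.22 ± 0.094). Tjp3, a scaffold of tight junctions, had -0.21 ± 0.087 and the integrin subunit Itgb6 -0.23 ± 0.087. BMP and Wnt signalling genes had 18 of 25 below 0, with Smad7, an inhibitor of TGF-beta signalling, at -0.21 ± 0.090.

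No gene of the muscular and connective layers was called. All 16 smooth muscle genes lay above 0, with a median of 0.19 and none at an unadjusted p under 0.05; their median was -0.062 with 3 surrogate variables in the model, so the direction depended on it. Their summed share was 2.09% to 3.15% (median 2.67%) in vehicle and 2.30% to 4.27% (median 2.86%) at 50 mg/kg. Lmod1, an actin nucleator of smooth muscle, had a log2 change of 0.23 ± 0.14, and its highest value, 429 CPM, came from the batch 3 library. Fibroblast and collagen genes had 13 of 18 above 0 (median 0.050, but -0.066 within batch 2), although Dcn, the proteoglycan decorin, lay at -0.25 ± 0.11. Endothelial genes had 9 of 13 below 0, with the VEGF receptor Flt1 at -0.23 ± 0.087. Enteric neuron and glia genes were split 7 and 7, and Gfap, a filament of glia, spanned 0.752 to 2.30 CPM (median 1.275) and 1.076 to 3.98 CPM (median 2.66) (log2 change 0.98 ± 0.31). The 6 genes of interstitial cells of Cajal, the pacemakers of gut muscle, were split 3 and 3, the fatty acid elongase Elovl6 among them at 0.28 ± 0.19.

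The list medians farthest from 0 were those of striated muscle and pancreatic genes, and each rested on 1 library. All 10 striated muscle genes lay below 0, with a median of -1.90 and 6 at an unadjusted p under 0.05. Tnni2, a fast-fibre troponin, was at 3.44 to 237 CPM (median 5.06) in vehicle and 2.76 to 16.1 CPM (median 6.18) at 50 mg/kg, and 5 of the 8 libraries at 50 mg/kg lay above the vehicle median although its log2 change was -2.41 ± 0.97. The highest vehicle value came from replicate 3, which also held 272 CPM of Tnnt3 and 17.98 CPM of Actn3. Without it the list median was -0.39, and within batch 2 it was 0.34. Pancreatic acinar genes had all 12 members above 0 and a median of 1.81. Their summed share of counts was highest in replicate 5 at 50 mg/kg (0.357%), and without that library the list median was -0.45. The direction of the pancreatic list thus rested on replicate 5.

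Markers of tissues outside the stomach wall were few. Of the hepatocyte list 3 genes were measured, all below 0, with albumin (Alb) at 5.42 to 31.2 CPM (median 16.2) in vehicle and 2.69 to 22.3 CPM (median 7.00) at 50 mg/kg, a log2 change of -1.44 ± 0.47. Intestinal enterocyte genes had 5 of 7 below 0, with Rbp2, a retinol-binding protein, at 0.49 ± 0.27. All 10 adipocyte genes lay above 0 (median 0.24; Plin4, a lipid droplet protein, at 0.23 ± 0.18), but the median was -0.59 within batch 1 and 0.99 within batch 2. Without the 3 libraries above 5% ribosomal protein counts 4 of 10 lay above 0 and the median was -0.042. The 3 blood genes lay above 0 (median 0.36, and 0.11 without those 3 libraries), with Alas2, the erythroid haem enzyme, at 0.57 ± 0.38.

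Lipid metabolism showed the cholesterol pathway above vehicle by a small margin. Of 23 cholesterol synthesis genes 20 lay above 0, 2 with an unadjusted p under 0.05, and the median was 0.15 (0.32 in batch 1 and 0.084 in batch 2). Msmo1, a sterol demethylase, was at 44.3 to 85.6 CPM (median 63.3) in vehicle and 67.9 to 95.1 CPM (median 80.4) at 50 mg/kg, a log2 change of 0.35 ± 0.15, and all 8 libraries lay above the vehicle median. Fatty acid synthesis genes had 12 of 16 above 0 (median 0.11; the elongase Elovl1 at 0.22 ± 0.13), and fatty acid oxidation and PPAR genes 17 of 22 below (median -0.094; the electron carrier enzyme Etfdh at -0.16 ± 0.071). Circadian genes had 11 of 17 above 0, with the clock output factor Tef at 0.28 ± 0.13, and female sex steroid response genes 10 of 13 (median 0.036, but -0.039 within batch 1), with Hsd17b11 at -0.19 ± 0.084.

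**Figure D4:**
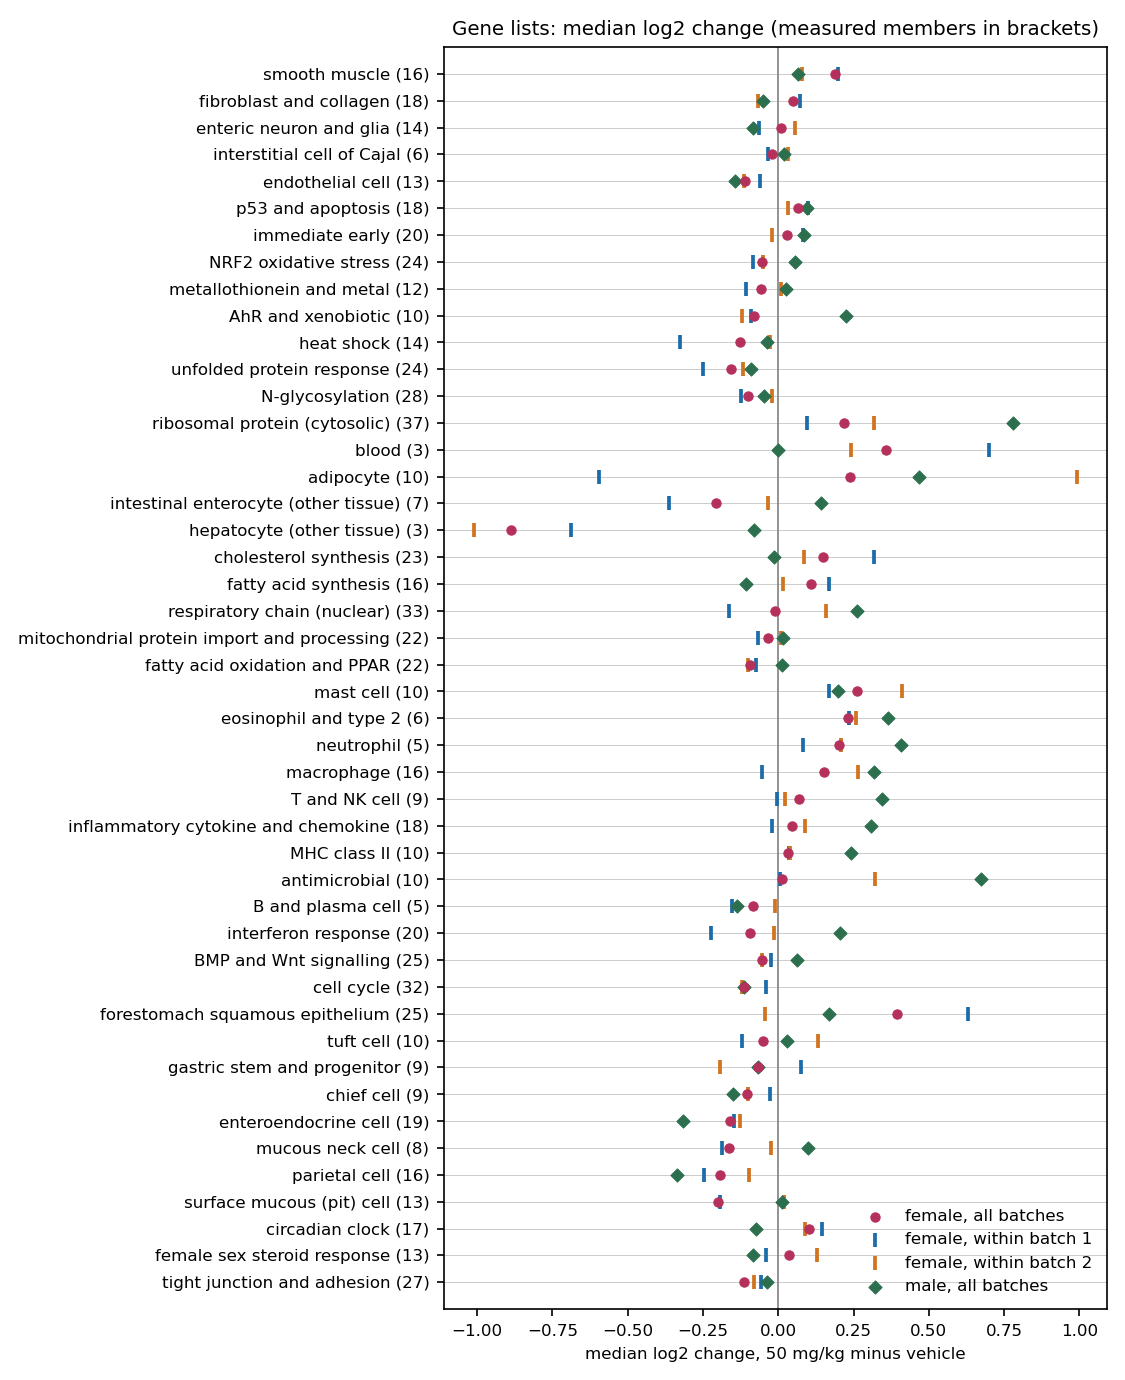
Median log2 change (x axis) of 46 gene lists at 50 mg/kg against vehicle in female stomach over all batches and within batches 1 and 2, and in male stomach; the number of measured genes is in brackets, and the striated muscle and pancreatic lists, which rest on single libraries, are left out. In 16 of the 46 lists the female medians have opposite signs in batches 1 and 2, the squamous, adipocyte, respiratory chain, macrophage and pit cell lists among them.

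The same dose in males, set against male vehicle libraries, gave 1069 calls among the same 15140 genes (7.06%), 749 higher (4.95%) and 320 lower (2.11%), and 3838 genes (25.4%) at an unadjusted p under 0.05, of which 1909 (12.6%) were higher and 1929 (12.7%) lower. The difference between the sexes was tested gene by gene as the female change minus the male change. No gene passed (0%), and 1187 (7.84%) had an unadjusted p under 0.05, with the female change above the male one in 410 (2.71%) and below it in 777 (5.13%), so calls in males and none in females do not show that any single gene responded differently. DESeq2 gave 0 calls and 1224 at an unadjusted p under 0.05 for this difference. The count in males was 0 within batch 2 alone, 7 within batch 1, 3 without a batch term, 0 with 3 surrogate variables and 0 when the share of ribosomal protein counts was a covariate. It ranged from 274 to 1641 with 1 male library left out.

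Ribosomal protein genes lay higher in males at 50 mg/kg than in females. Their median log2 change was 0.22 in females and 0.78 in males. In males 35 of 37 were called, all higher, where 4.95% of all genes were called higher. For the difference 29 of 37 had an unadjusted p under 0.05, where 7.84% of all genes did. Genes with related expression are not independent, so these counts do not stand for separate responses. No gene was called in males within batch 2 alone, with 3 surrogate variables or once the model allowed for the ribosomal protein share. For Rps6 the log2 change was 0.25 ± 0.17 in females and 0.88 ± 0.17 in males, a difference of -0.63 ± 0.24 (edgeR adjusted p = 0.629). Antimicrobial genes had medians of 0.013 and 0.67, with Defb1 at 0.63 ± 0.33 in females and 1.53 ± 0.34 in males, a difference of -0.90 ± 0.47 (edgeR adjusted p = 0.652). Parietal cell genes had medians of -0.19 and -0.33, the same direction in both sexes.

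The 20 genes with the smallest p in females were looked up in males at 50 mg/kg. The male libraries were part of the same fit, with shared batch terms and a shared estimate of the spread, so they entered the p by which the genes were chosen. Of the 10 lower genes all 10 had a log2 change below 0 in males, where 66.8% of all genes lower in females did. In males 2 of them were called, where 2.11% of all genes were called lower. These were Kifbp (-0.22 ± 0.072, edgeR adjusted p = 0.048) and Mecom (-0.38 ± 0.087, edgeR adjusted p = 0.00821). Of the 10 higher genes 9 were above 0 in males, where 62.4% of all genes higher in females were. Called in males were 2 of them, where 4.95% of all genes were called higher. These were Card9 (0.27 ± 0.084, edgeR adjusted p = 0.0435) and Defb14 (1.94 ± 0.42, edgeR adjusted p = 0.00727). The higher gene not above 0 in males was RT1-DOb, at 0.74 ± 0.23 in females and -0.071 ± 0.22 in males. Its difference was 0.81 ± 0.32, with an edgeR adjusted p of 0.629.

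At 5 mg/kg females also gave 0 calls (0%) against the same vehicle libraries, with 435 genes (2.87%) at an unadjusted p under 0.05 by edgeR, 231 higher (1.53%) and 204 lower (1.35%), and by DESeq2 0 calls and 436 such genes. Since both doses share those 8 vehicle libraries, their values are only set side by side. Mipep had a log2 change of -0.16 ± 0.059 at 5 mg/kg and -0.25 ± 0.058 at 50 mg/kg. Adgrg3 had 0.51 ± 0.20 and 0.73 ± 0.19, and Defb14 0.25 ± 0.44 and 1.39 ± 0.41. The unfolded protein response list had medians of -0.13 and -0.16, and the squamous list -0.20 and 0.40.

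**Figure D5:**
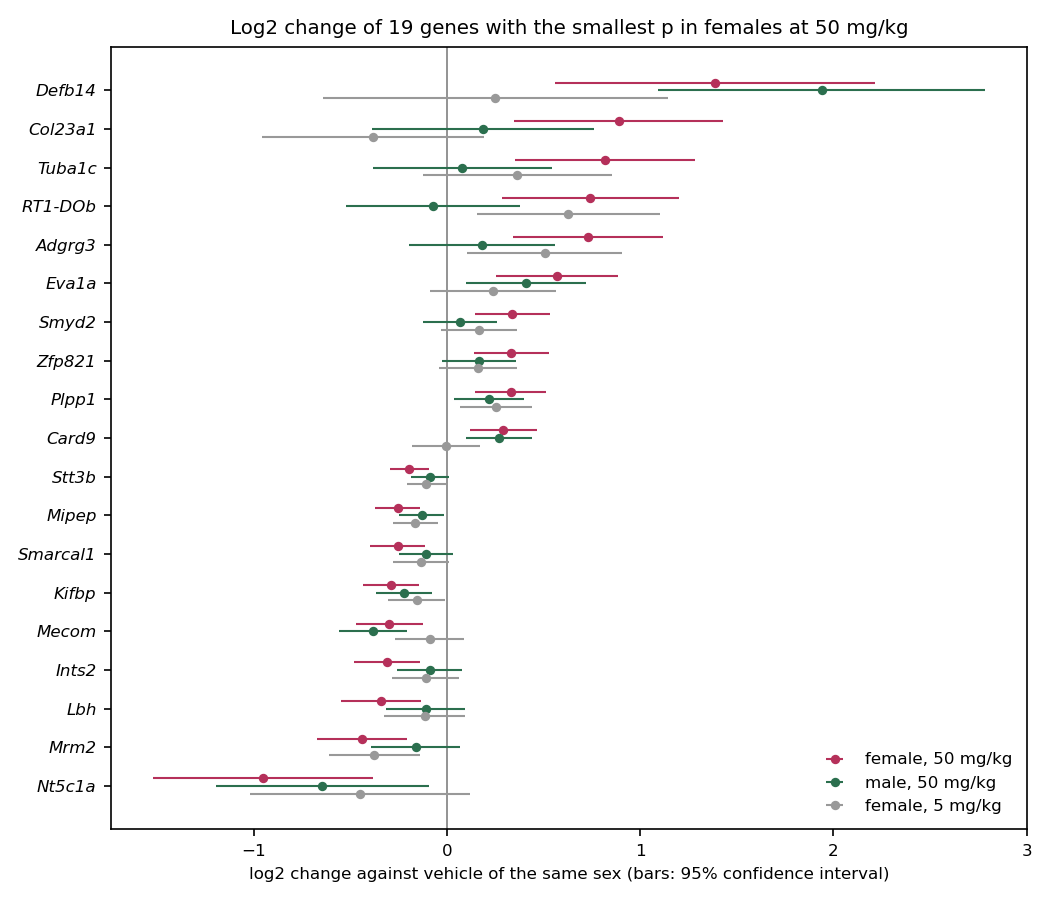
Log2 change against vehicle of the same sex (x axis) for 19 of the 20 genes named for the smallest p in females at 50 mg/kg, which were chosen by the female p of the joint fit; points are estimates from 8 libraries a group and bars 95% confidence intervals. Female and male points at 50 mg/kg lie on the same side of 0 for every gene plotted but RT1-DOb, and the female 5 mg/kg points use the same vehicle libraries as the female 50 mg/kg ones.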

How the data were processed

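Polyadenylated RNA of 48 rat stomach libraries was used, 8 for each sex and dose, of which 16 (female, vehicle and 50 mg/kg) are the subject here. The deposited table holds estimated counts per gene, 1 column a library, which the authors did not scale to library size as far as the values show. Per the submitters' processing notes the tools were Salmon 1.10.3, cutadapt 4.9, STAR 2.7.11b, FastQC 0.12.1, Trim Galore 0.6.10, MultiQC 1.28 and UMI-tools 1.1.5 and the build mRatBN7.2 (roles and settings: not given in the sources used here). Of the values 11.3% were fractional, and counts were rounded to whole numbers. No 2 libraries held identical values.

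Genes were kept by edgeR's filterByExpr (minimum count 10, minimum total 15), which left 15140 of 30562, and libraries were scaled by TMM. All 48 libraries entered 1 quasi-likelihood fit (edgeR 4.0.16, R 4.3.3) with a term for each sex and dose and for batch, so that all groups share 1 estimate of the spread. Genes were called at a Benjamini-Hochberg adjusted p under 0.05, and the female change minus the male change was tested in the same fit. CPM values are TMM-scaled, and group sums of markers are percentages of a library's counts. The fit was also run on simulated counts that held no batch differences and no outlying libraries. That run cannot show how the fit behaves where these are present, as here. Alternatives were DESeq2 1.42.0, its size factors, a replicate block, no filter, leaving out batch as a term, voom with quality weights (limma 3.58.1), 3 surrogate variables (sva 3.50.0), subsets of libraries, single batches, a covariate for the ribosomal protein share and leaving out each library. Added after seeing the data were fits without the 3 libraries above 5% ribosomal protein counts, without batch 3 and without each male library, and list medians without single libraries.

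The genes named are the 10 higher and 10 lower genes with the smallest p (with a symbol and at least 1 CPM), 13 genes listed by name, and from each of 48 lists the member with the smallest p, or 3 members where at least 5 had an unadjusted p under 0.05. The rule allowed 3 from every list; this shortening, and the genes whose groups do not overlap, were chosen after values were seen. A few of these genes are left out here. The comparison and the lists were chosen with earlier results of these data known. Counting precision followed from 6500508 to 23940175 counts a library.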

Additional observations from a re-analysis of the deposited data

Results flagged for a closer look

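In groups of 8 libraries the highest or lowest library was marked where its gap to the next, divided by the group's range, passed Dixon's 95% critical value. Of 184 groups 35 had such a library, where chance marks about 1 in 20; genes with related expression are not independent. Vehicle replicate 2 was the highest of its group for Defb1 (18.9 CPM), Defb14 (4.10 CPM), Fam25a (451 CPM), Hopx (91.3 CPM), Lyz2 (139.7 CPM), Nr4a2 (46.2 CPM), Rbm3 (161 CPM), Rpl28 (568 CPM), Rps6 (971 CPM), Stfa3 (486 CPM) and ribosomal protein genes (6.03% of counts). Vehicle replicate 3 was the highest of its group for Actn3 (17.98 CPM), Nt5c1a (5.34 CPM), Smyd2 (21.1 CPM), Tnni2 (237 CPM), Tnnt3 (272 CPM) and striated muscle (0.302% of counts). At 50 mg/kg replicate 1 was the highest library for Alb (22.3 CPM), Elovl1 (238 CPM), Lmod1 (429 CPM), forestomach squamous epithelium (2.99% of counts) and the total count (23940175). Vehicle replicate 6 was the highest of its group for Pdia3 (697 CPM), Slc39a10 (54.2 CPM) and Stt3b (123 CPM). At 50 mg/kg replicate 5 was the highest library for Adgrg3 (3.76 CPM) and Tpsb2 (3.55 CPM). At 50 mg/kg replicate 2 was the highest library for Alas2 (2.88 CPM) and Pdia3 (607 CPM). Vehicle replicate 2 was the lowest of its group for Ganab (105 CPM) and Lbh (29.8 CPM). For Hsd17b11 (40.4 CPM) the lowest library of its group was 50 mg/kg replicate 1. For Ints2 (10.4 CPM) the lowest library of its group was vehicle replicate 4. For Kif11 (37.3 CPM) the highest library of its group was 50 mg/kg replicate 8. For Plin4 (55.8 CPM) the lowest library of its group was vehicle replicate 6. Vehicle replicate 2, which is also the vehicle library with the largest ribosomal protein share, accounts for 13 of the 35 and vehicle replicate 3, the library with striated muscle RNA, for 6. The part of these libraries in the differences was not tested beyond the fits without each of them.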

How the results depend on the processing

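In females at 50 mg/kg 29 of 31 alternatives called 0 genes, with 254 to 1911 at an unadjusted p under 0.05. The exceptions were DESeq2, with 1 (LOC120095480, at a log2 change of 28.6, too large for these counts to measure), and batch 1 alone, with 3. Those 3 were Csrp2 at -0.60, Gp2 at 5.94 and ENSRNOG00000068847 at -3.85. Gp2 is known from the pancreas, but the pancreatic list had a median of -0.84 within batch 1. Leaving out each of the 16 libraries gave 0 calls in every case and 612 to 1334 genes at an unadjusted p under 0.05. The female minus male difference gave 9 calls within batch 1 and 0 in the other 27 of 28 alternatives, and 5 mg/kg 0 in all 19. Male calls, 1069 in the fit reported, were 647 without the filter, 3 without a batch term, 0 with 3 surrogate variables, 7 within batch 1, 0 within batch 2 and 0 with the ribosomal protein share. They ranged from 274 to 1641 with 1 male library left out, moving by over 1.5 times without vehicle replicate 2 (506) or 4 (274) or 50 mg/kg replicate 2 (329), 3 (364), 4 (287), 6 (548) or 7 (1641). The cause was not tested.

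With the replicate number as a block 0 genes were called in females (931 at an unadjusted p under 0.05), 1566 in males, 0 at 5 mg/kg and 0 for the difference. Same-numbered libraries correlated above 0.1 in 5 of 8 pairs (0.0114 to 0.255) and best with their own number in 4 of 8, so the numbers were not taken as pairs.

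Of 2635 values of the 85 named genes under the alternatives 29 changed sign. Most of these genes were named for a small p in the main fit, and many alternatives reuse nearly all its libraries. Few sign changes were thus likely from the start, and their number does not show that the values hold. With 3 surrogate variables the log2 change was -0.020 for Defb1, -0.44 for Cyp1a1, 0.16 for Pgc, -0.14 for Hmox1, -0.084 for Cxcr2 and -0.013 for Perp. Within batch 1 the log2 change was 0.037 for Il1b, -0.020 for Ghrl and -0.055 for Trem2. Within batch 2 the log2 change was -0.16 for Krt5, -0.14 for Cyp1a1, -0.073 for Hmox1, -0.19 for Cxcr2, 0.42 for Tnni2 and 0.28 for Tnnt3. With the ribosomal protein share the log2 change was 0.0068 for Pgc, -0.024 for Gkn1 and -0.11 for Ghrl. With voom the log2 change was -0.053 for Ghrl. Without the 3 libraries above 5% ribosomal protein counts the log2 change was -0.10 for Ghrl. With 1 female library left out Ghrl ranged from -0.053 to 0.080, at -0.038, -0.0063, -0.039, -0.018, -0.053, -0.018 and -0.0057 without vehicle replicate 6, vehicle replicate 7, vehicle replicate 8, 50 mg/kg replicate 2, 50 mg/kg replicate 3, 50 mg/kg replicate 4 and 50 mg/kg replicate 7. With 1 female library left out Gkn1 ranged from -0.0066 to 0.20, at -0.0066 without 50 mg/kg replicate 3. With 1 female library left out Il1b ranged from -0.33 to 0.0035, at 0.0035 without vehicle replicate 7. The cause was not tested.

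Of the 48 list medians 13 changed sign with 3 surrogate variables, 8 within batch 1, 10 within batch 2, 3 when the share of ribosomal protein counts entered the model, 1 (adipocyte) without the 3 libraries above 5% ribosomal protein counts, 3 each without vehicle replicate 2 or 3 and 5 without 50 mg/kg replicate 5. The median of all genes moved by less than the median standard error of 0.125 throughout. Scaling of the libraries holds that median near 0 in every fit, so this is no check of the results. Intervals were widest for genes under 1 CPM, and the part of depth in this was not tested.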
